A study of Mus musculus with 123 samples.

Results

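Gene expression in the cerebral cortex of undisturbed mice was compared between the onset of darkness and the onset of light. The comparison rests on 13 of the 62 animals with an RNA library: 5 mice killed at ZT12, when the lights go off, and 8 mice killed at ZT0, when they come on. Zeitgeber time (ZT) counts hours from light onset. The animals were chosen by their labels alone, and no measured value entered the choice. All 13 were males of the inbred strain C57BL/6J, kept in 12 h of light and 12 h of dark with food always available. They slept freely, were given no treatment and were anaesthetised with isoflurane before decapitation. Their age is given only through the deprived mice of the study, which were 11 to 12 weeks old. Of the 8 mice at ZT0, 4 carry the time label T0 and 4 the label T24, and 2 (J70N1 and J70N2) were the controls of the cohort kept for 7 days after deprivation. The 5 mice at ZT12 are T12N1, T12N2 and T12N4 from sequencing batch 1 and T12N5 and T12N6 from batch 2, and values for ZT12 are listed below in that order. The ZT0 group held 4 animals of each batch.

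The study as a whole kept other mice awake for 6 h from light onset by gentle handling and followed them through recovery. Each cortex was ground frozen and split between RNA sequencing and ATAC-seq, an assay in which a transposase marks accessible DNA. Deprived mice enter below in 3 groups of 3 animals: T30, killed at ZT6 as deprivation ended, T60, killed at the dark onset 30 h later, and T192, killed at light onset about 7 days after deprivation. Undisturbed mice at ZT3 (3 animals), ZT6 (5) and ZT18 (5) are used to place ZT12 and ZT0 within the day.

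Mice are nocturnal: they sleep through most of the light period and wake mainly in the dark, so that dark onset follows the rest phase and light onset follows the active phase. The circadian clock is a transcription loop in which CLOCK or NPAS2 with BMAL1, the product of Arntl, activate the Per, Cry, Nr1d, Dbp and Ciart genes. PER and CRY proteins then inhibit the activators, and the NR1D repressors lower Arntl and Nfil3. Immediate early genes such as Arc and Fos are switched on in neurons within minutes of activity, and corticosterone, the glucocorticoid of rodents, rises in blood towards dark onset.

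The deposited RNA values are levels on a log2 scale, on which a difference of 1 is a 2-fold change. The table holds 13842 genes, and levels are compared here for the same gene across animals, never between genes. A gene is called changed where its adjusted p is below 0.05 in a linear model over all groups with a term for batch (limma, Benjamini-Hochberg adjustment over all genes). The labelled tissue was checked against marker genes fixed by cell type. The summed level of 12 excitatory neuron markers lay between 12.07 and 12.27 at ZT0 and between 12.11 and 12.28 at ZT12. The 12 inhibitory neuron markers summed to between 9.53 and 9.61 at ZT0 and between 9.57 and 9.62 at ZT12. The 12 oligodendrocyte markers summed to between 11.20 and 11.63 at ZT0 and between 11.08 and 11.42 at ZT12, with 1 called lower and a median change of -0.16. Of 10 choroid plexus markers 3 were measured, with a sum between 7.19 and 7.36 at ZT0 and between 7.36 and 7.42 at ZT12. The part of these 2 shifts in the results was not tested. Of 11 striatal markers 8 were measured, with a sum between 7.65 and 7.80 at ZT0 and between 7.66 and 7.75 at ZT12. Drd2, a defining receptor of striatal neurons, was among those not measured. The share of striatal tissue in the samples was not tested.

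At ZT12, 1605 genes were higher and 1990 lower than at ZT0. This is 26.0% of all genes tested, 11.6% higher and 14.4% lower, and these shares are the background for every count of a gene group below. The gene lists were chosen with earlier results of these data known, so their counts beside these shares are given as a description. Most of the changes were small: 228 genes differed by more than 0.5 and 23 by more than 1. In 718 genes (5.19%) all ZT12 animals were above all ZT0 animals, and in 867 (6.26%) they were all below. The 15 largest rises and 15 largest falls named below were drawn only from such genes. For them a lack of overlap was fixed by the choice and is given as a description. Within the batches, 1602 of the 1605 genes called higher had a positive difference in both, and 1987 of the 1990 called lower a negative one. The calls rest on both batches pooled, so that this sign is largely fixed by the call. The ZT0 animals labelled T0 and T24, compared with each other in limma as a negative control, gave 0 calls, with 621 genes at an unadjusted p under 0.05. A test of whether the difference itself depended on batch gave 0 calls and 596 genes at an unadjusted p under 0.05.

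**Figure D1:**
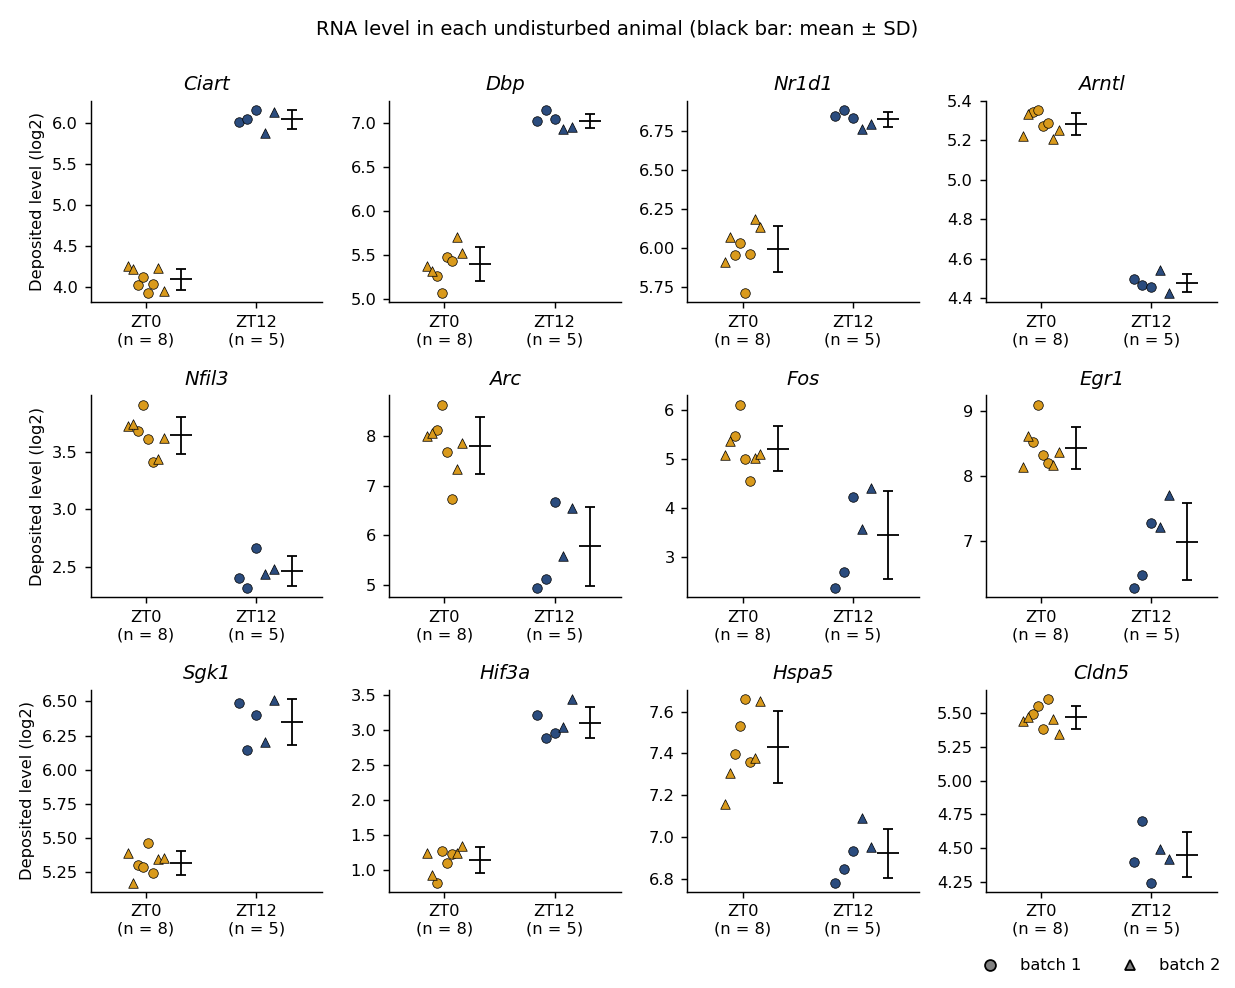
Deposited log2 level (vertical axis) of 12 genes in the 8 mice at ZT0 and the 5 at ZT12. Each point is an animal, circles batch 1 and triangles batch 2, and bars give the mean with the standard deviation. Ciart moves from between 3.92 and 4.25 to between 5.87 and 6.16 with no overlap, while Arc spans 6.72 to 8.63 at ZT0 and 4.93 to 6.67 at ZT12.

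The promoters of a few clock genes are shown first, because the results open with the clock and these stretches hold the short elements through which clock factors are known to act. The sequences are from RefSeq on GRCm38.p6, read 5′ to 3′ along the gene's own strand, and capitals mark the elements found. The search covered 250 bases before to 50 bases after each start, on both strands, for the E-box CACGTG, the D-box as TTATGTAA, TTATGCAA, TTACGTAA or TTACATAA, the Rev-erb/ROR element, the glucocorticoid element, the cyclic AMP element, the serum response element and the heat shock element, 7 elements in all. The stretches printed are ones that held a match. The windows of Dbp, Nr1d1, Nr1d2 and Per3 held no E-box and those of Nfil3, Clock and Npas2 no Rev-erb/ROR element, which says only that these letters are not in these windows. In the Ciart stretch, chr3:95882257-95882354 on the minus strand, 3 E-boxes begin 116, 58 and 44 bases before the start. The Per3 stretch, chr4:151044806-151044880 on the minus strand, holds 2 D-boxes. The Per1 stretch, chr11:69098773-69098942 on the plus strand, holds an E-box and, 24 bases before the start, a D-box. The Arntl stretch, chr7:113207527-113207556 on the plus strand, holds a Rev-erb/ROR element that begins 26 bases after the start.
Ciart: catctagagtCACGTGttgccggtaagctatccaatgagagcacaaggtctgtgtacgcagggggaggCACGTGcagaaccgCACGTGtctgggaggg
Per3: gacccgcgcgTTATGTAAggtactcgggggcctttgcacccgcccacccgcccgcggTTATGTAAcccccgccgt
Per1: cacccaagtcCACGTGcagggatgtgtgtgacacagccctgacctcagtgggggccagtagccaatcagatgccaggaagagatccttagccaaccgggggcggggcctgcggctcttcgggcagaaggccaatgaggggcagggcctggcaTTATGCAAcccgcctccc
Arntl: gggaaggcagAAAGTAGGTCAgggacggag

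Across the table, 10251 genes had a promoter of this kind, of which 1230 were called higher and 1456 called lower at ZT12. An E-box was present in 14.9% of the promoters of genes called higher, 10.4% of those called lower and 11.5% of all. D-boxes were found in 1.95%, 1.51% and 1.63% of the same groups, the Rev-erb/ROR element in 0.244%, 0.412% and 0.185%, and the glucocorticoid element in 0.813%, 0.206% and 0.41%. For the cyclic AMP element the shares were 2.52%, 3.91% and 3.57%, for the serum response element 1.38%, 1.79% and 1.59%, and for the heat shock element 0.407%, 0.618% and 0.585%. These are matches of letters in a short window and are given as a description of the sequences.

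Of the 24 clock genes measured, 9 were called higher and 4 lower at ZT12, and the median change of the list was 0.02 beside -0.01 over all genes. The 2 directions fell on different arms of the loop. Higher were Ciart, Dbp, Bhlhe41, Nr1d1, Nr1d2 and Per3, known targets of CLOCK and BMAL1, the D-box activators Tef and Hlf, and Rorb. Lower were Arntl, Clock and Npas2, which encode the activators, and Nfil3, which encodes the repressor that competes at D-boxes.

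Ciart, which encodes a repressor of CLOCK-BMAL1 also known as CHRONO, lay between 3.92 and 4.25 at ZT0 (median 4.07). At ZT12 its level was 6.01, 6.04, 6.16, 5.87 and 6.13. The groups were far apart, and the rise of 1.95 (SE 0.14, adjusted p = 5.91e-15) was 3.87-fold. Dbp, the D-box activator whose RNA is a standard readout of CLOCK-BMAL1 activity, lay between 5.06 and 5.70 at ZT0 (median 5.40). Its 5 ZT12 levels were 7.03, 7.15, 7.05, 6.93 and 6.96. The rise of 1.63 (SE 0.10, adjusted p = 4.34e-18) was 3.09-fold, and the lowest ZT12 animal stood well above the highest ZT0 animal. In both genes the estimate was a little larger in batch 1 than in batch 2, at 2.05 and 1.85 for Ciart and 1.76 and 1.47 for Dbp.

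Nr1d1, the repressor REV-ERB alpha, ranged from 5.71 to 6.18 at ZT0 (median 6.00) and read 6.85, 6.88, 6.83, 6.77 and 6.79 at ZT12. The groups did not overlap, and the rise was 0.83 (SE 0.08, adjusted p = 1.39e-10). Its paralogue Nr1d2 rose by 0.66, from a ZT0 range of 5.58 to 5.99 to ZT12 levels of 6.41 to 6.55. Bhlhe41, a repressor that competes for E-boxes, rose by 0.91 (adjusted p = 1.41e-11). Its ZT0 animals lay between 4.02 and 4.33 and its ZT12 animals at 5.16, 5.21, 5.34, 4.88 and 4.96. The change in Bhlhe41 was 1.11 in batch 1 and 0.65 in batch 2, so that the 2 batch 2 animals formed the lower end of the ZT12 group while still standing clear of ZT0.

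Among the Period genes, only Per3 passed the test. Per3 rose by 0.65 (SE 0.05, adjusted p = 5.91e-13), from between 4.58 and 4.88 (median 4.71) to 5.42, 5.40, 5.24, 5.40 and 5.44. Per1 read 5.66, 5.67, 5.96, 5.77 and 5.93 at ZT12, inside its ZT0 range of 5.25 to 6.03, with a difference of 0.21 (SE 0.17, adjusted p = 0.376). Per2 differed by 0.04 (SE 0.13, adjusted p = 0.859), and its ZT12 levels of 4.27 to 4.69 also lay inside the ZT0 range. The cryptochromes Cry1 (-0.07, adjusted p = 0.429) and Cry2 (-0.01, adjusted p = 0.921) did not pass either. ZT12 and ZT0 lie on opposite flanks of the daily course of Per2, whose group means were highest at ZT18 and lowest at ZT3. The group mean of Cry1 was lowest at ZT6 (3.26) and similar at ZT12 (3.89), ZT18 (3.97) and ZT0 (3.96).

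The D-box activators Tef and Hlf rose by 0.47 (adjusted p = 1.04e-11) and 0.29 (adjusted p = 8.31e-06), both without overlap between the groups. Rorb, a nuclear receptor that binds the same element as REV-ERB, rose by 0.25 (adjusted p = 0.0161) with overlapping groups. Its difference was 0.37 in batch 1 and 0.08 in batch 2, and without T12N2 it was 0.21 with an adjusted p of 0.0665. Further members not called, Rora, Bhlhe40, Fbxl21, Csnk1d and Csnk1e, differed by values between -0.18 and 0.13.

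Arntl, the gene of BMAL1, fell by 0.80 (SE 0.05, adjusted p = 7.62e-18), a 1.75-fold decrease. It lay between 5.21 and 5.35 at ZT0 (median 5.28) and read 4.50, 4.47, 4.46, 4.55 and 4.43 at ZT12. Both groups were tight, with a gap between them several times their own width. Nfil3 lay between 3.41 and 3.91 at ZT0 (median 3.65) and read 2.40, 2.32, 2.67, 2.44 and 2.49 at ZT12, a fall of 1.18 (SE 0.09, adjusted p = 3.4e-14). That is a 2.26-fold decrease with no overlap, almost equal in batch 1 (-1.19) and batch 2 (-1.17). Npas2 fell by 0.38 and Clock by 0.27, each with all ZT12 animals below all ZT0 animals.

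**Figure D2:**
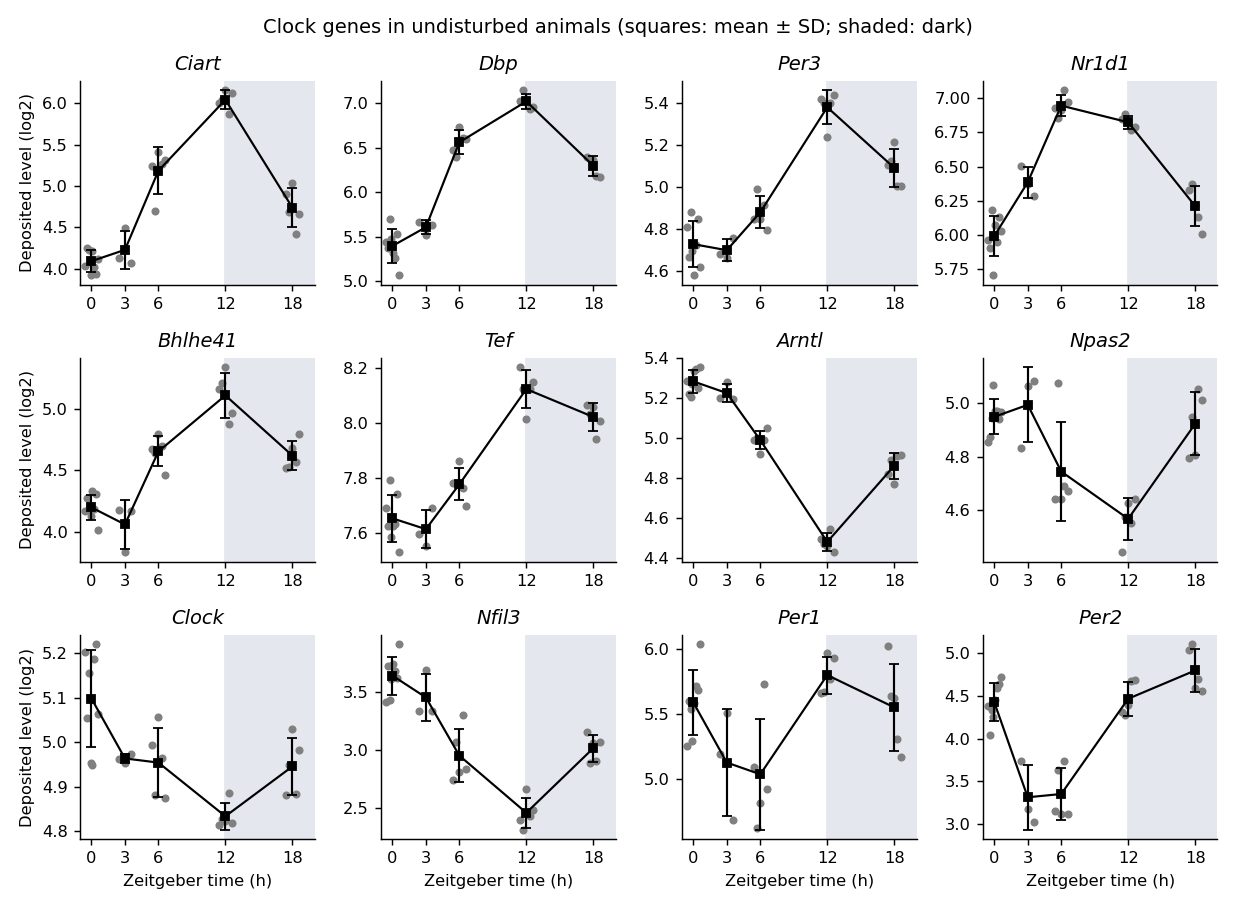
Deposited log2 level (vertical axis) of 12 clock genes in undisturbed mice at ZT0, ZT3, ZT6, ZT12 and ZT18 (horizontal axis, hours after light onset). Points are animals, 8 at ZT0, 3 at ZT3 and 5 at each other time, squares with bars give the mean and standard deviation, and shading marks the dark. Ciart, Dbp and Per3 peak at ZT12 and Nr1d1 at ZT6, while Arntl and Nfil3 are lowest at ZT12.

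Of 17 genes listed as outputs of the clock, 5 were higher and 3 lower, with a median of -0.01. Usp2, a deubiquitinase under direct E-box control, rose by 0.83 (SE 0.06, adjusted p = 5.98e-15), from 5.40 to 5.76 at ZT0 to 6.45, 6.46, 6.44, 6.35 and 6.42. Its ZT12 animals lay within a narrow band above every ZT0 animal. Tspan4, a tetraspanin, rose by 0.53 and Coq10b, a coenzyme Q binding protein, by 0.34. Leo1, a subunit of the PAF1 elongation complex, fell by 0.49 and Rnd3, an atypical small GTPase, by 0.45, both without overlap. Cdkn1a, the cell cycle inhibitor p21, lay between 4.33 and 5.04 at ZT0 and read 2.94, 3.33, 3.40, 3.54 and 4.04 at ZT12. Its fall of 1.18 (SE 0.13, adjusted p = 7.84e-10) was -1.50 in batch 1 and -0.74 in batch 2.

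Genes known to respond to glucocorticoids included the largest rise among those named, that of Hif3a, a gene of low level. The Sgk1 and Klf15 promoter stretches are printed because both genes were high at ZT12 and their windows held a match to some element searched. Klf15 is not in the glucocorticoid-responsive list, and its window held no glucocorticoid element. Neither did the windows of Hif3a, Plin4, Tsc22d3, Fkbp5 and Nfkbia. The element was found for Map3k6, called higher at ZT12, and for Mt1 and Fam107a, not called. The Sgk1 stretch, chr10:21993640-21993724 on the plus strand, belongs to 1 of several starts of that gene and holds an E-box and a glucocorticoid element. The Klf15 stretch, chr6:90462338-90462419 on the plus strand, holds 2 E-boxes, 228 and 172 bases before the start. Capitals again mark the elements.
Sgk1: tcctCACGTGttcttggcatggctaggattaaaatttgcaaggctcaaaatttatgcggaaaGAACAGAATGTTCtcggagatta
Klf15: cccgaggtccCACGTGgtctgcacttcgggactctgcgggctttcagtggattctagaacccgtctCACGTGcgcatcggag

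Of 25 glucocorticoid-responsive genes measured, 11 were higher and 2 lower at ZT12, with a median change of 0.18 beside -0.01 over all genes. Hif3a, a member of the hypoxia-inducible factor family, lay between 0.81 and 1.34 at ZT0 (median 1.23) and read 3.21, 2.89, 2.96, 3.04 and 3.44 at ZT12. The rise of 1.97 (SE 0.13, adjusted p = 5.16e-17) was 3.91-fold, and it was 1.92 in batch 1 and 2.06 in batch 2. Plin4, a lipid droplet coat protein, rose by 1.25 (SE 0.14, adjusted p = 1.38e-09), from between 0.33 and 0.89 to 1.52, 1.66, 1.17, 1.86 and 2.46. The groups were apart, and the difference was 0.92 in batch 1 and 1.71 in batch 2.

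Sgk1, the serum- and glucocorticoid-regulated kinase, lay between 5.18 and 5.46 at ZT0 (median 5.33). At ZT12 it read 6.49, 6.14, 6.40, 6.21 and 6.51, a rise of 1.03 (SE 0.09, adjusted p = 8.26e-13) that was 2.04-fold. All 5 animals took part in it, and the batches gave 1.02 and 1.04. Tsc22d3, which encodes the glucocorticoid-induced leucine zipper GILZ and is also listed as a clock output, rose by 0.60 with its ZT12 animals between 6.59 and 6.83 and its ZT0 animals between 5.96 and 6.15. Map3k6, a stress kinase, rose by 0.63, Nfkbia, the NF-kappaB inhibitor, by 0.55, and Fkbp5, the co-chaperone that restrains the glucocorticoid receptor, by 0.48, all without overlap. Sult1a1, a sulfotransferase, rose by 0.37 and Arrdc2, an arrestin-like protein, by 0.32.

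Klf9, a Krüppel-like factor induced by the receptor, rose by 0.15 (adjusted p = 0.0127), and without T12N6 the difference was 0.13 with an adjusted p of 0.0555. Zbtb16, a zinc finger repressor, had a difference of 0.23 (adjusted p = 0.0348), with estimates of 0.55 in batch 2 and -0.01 in batch 1. Leaving out any of J70N1, T0N8, T0N1, T12N5 or T12N6 ended this call, with 0.12 and an adjusted p of 0.32 at the weakest. The 2 members called lower were Cdkn1a, given above, and Pdk4, which inhibits pyruvate dehydrogenase and fell by 0.26. The metallothioneins Mt1 (0.06, adjusted p = 0.669) and Mt2 (0.18, adjusted p = 0.259) and the receptor gene Nr3c1 (-0.09, adjusted p = 0.113) did not pass. Corticosterone was not measured, and its part in these values was not tested.

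Klf15, a Krüppel-like factor of amino acid and lipid metabolism, rose by 0.71 (SE 0.08, adjusted p = 1.39e-09), from between 3.59 and 3.81 to 4.46, 4.21, 4.29, 4.39 and 4.49. Other genes among the 15 largest rises had no place in a list of the clock or of glucocorticoid response. Net1, an exchange factor for small GTPases, lay between 4.41 and 4.66 at ZT0 and read 5.44, 5.49, 5.39, 5.42 and 5.52 at ZT12, a rise of 0.92 (SE 0.07, adjusted p = 7.83e-15). Pla2g4e, a phospholipase that makes N-acyl phosphatidylethanolamines, rose by 0.96 (adjusted p = 1.63e-07), and its ZT12 levels of 4.00, 4.00, 3.93, 3.67 and 3.64 stood above the ZT0 range of 2.68 to 3.15. Lfng, a glycosyltransferase that modifies Notch receptors, rose by 0.75, with a difference of 0.53 in batch 1 and 1.03 in batch 2. Zfp46, a zinc finger protein, rose by 0.70 (adjusted p = 4.3e-13) with no overlap. It stood in a list of 6 measured zinc finger genes drawn up from earlier results of these data, of which 4 were higher and 0 lower. Zfp189 rose by 0.54 and Zkscan2 by 0.43 without overlap. Zbtb20 rose by 0.32 (adjusted p = 0.0279), and without T0N3, T12N1 or T12N2 it did not pass, with adjusted p up to 0.155.

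Immediate early genes had the highest share of members lower among the 44 lists: 21 of 27 fell, none rose, and the median change was -0.78. Arc, a regulator of synaptic AMPA receptors, lay between 6.72 and 8.63 at ZT0 (median 7.93). Its ZT12 levels were 4.93, 5.12, 6.67, 5.59 and 6.55, a fall of 2.02 (SE 0.50, adjusted p = 0.00179) that was 4.06-fold. The groups were just apart, and the spread within each was wide. Fos, a subunit of the AP-1 transcription factor, lay between 4.56 and 6.11 at ZT0 (median 5.09) and read 2.38, 2.70, 4.23, 3.58 and 4.41 at ZT12. Its fall of 1.75 (SE 0.40, adjusted p = 0.000919) was 3.36-fold. In both genes T12N1 and T12N2 were the lowest animals and T12N4 and T12N6 the highest, so the size of the fall varied from animal to animal.

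The zinc finger factors of the Egr family fell together. Egr1 lay between 8.13 and 9.09 at ZT0 (median 8.34) and read 6.27, 6.47, 7.28, 7.21 and 7.70 at ZT12, a fall of 1.44 (SE 0.22, adjusted p = 2.09e-06). Egr2 fell by 1.97 (adjusted p = 8.97e-05), from between 2.52 and 4.30 to 0.03, 0.59, 1.49, 1.64 and 2.35. Egr3 fell by 1.25 (SE 0.14, adjusted p = 9.43e-10) and Egr4 by 0.88, both without overlap. As with Arc, the falls were larger in batch 1 than in batch 2: -1.86 and -0.86 for Egr1, -2.60 and -1.11 for Egr2.

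Among the nuclear receptors of the group, Nr4a1 fell by 1.19 (adjusted p = 0.000656) and Nr4a3 by 0.87 (adjusted p = 0.000856). The 5 ZT12 levels of Nr4a1, between 5.04 and 6.13, overlapped its ZT0 range of 6.06 to 7.47, whereas those of Nr4a3 did not overlap. Npas4, a transcription factor induced by calcium entry, fell by 0.83 (adjusted p = 0.00661), with -1.30 in batch 1 and -0.20 in batch 2. Its animal T12N6 read 4.25 while the others lay between 2.64 and 3.19. Fosb, another AP-1 subunit, fell by 0.95.

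Nptx2, Homer1 and Bdnf, of the same group, changed with less spread than Arc. Nptx2, a secreted pentraxin that gathers AMPA receptors, lay between 5.10 and 5.80 at ZT0 and read 4.12, 4.18, 4.22, 4.35 and 4.39 at ZT12. Its fall of 1.13 (SE 0.10, adjusted p = 7.19e-12) had no overlap. Homer1, a scaffold of the postsynaptic density with a short form induced by activity, fell by 0.98 (adjusted p = 3.47e-09), and the table does not separate its forms. Bdnf, the neurotrophin, fell by 0.69 (adjusted p = 2.68e-08), from between 4.14 and 4.61 to 3.55, 3.66, 3.71, 3.82 and 3.66. Among members not called, Junb differed by -0.77 (adjusted p = 0.0601) with overlapping groups and Jun by -0.11 (adjusted p = 0.305). Klf4 (-0.30, adjusted p = 0.0735), Btg2 (-0.46, adjusted p = 0.164) and Rheb (-0.14, adjusted p = 0.0961) did not pass either.

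The feedback inhibitors of MAP kinase signalling had 9 of 14 members lower and 1 higher, with a median of -0.36. The phosphatases Dusp4 and Dusp6, which switch off ERK, fell by 0.96 and 0.82 without overlap. Dusp6 read 4.79, 5.07, 5.66, 5.40 and 5.52 at ZT12 against a ZT0 range of 5.80 to 6.44. Spry4, Spred3 and Spred2, inhibitors upstream of ERK, fell by 0.70, 0.45 and 0.37. Spry1 was the member called higher, by 0.14 (adjusted p = 0.0322), and leaving out any of T0N5, T0N8, T12N2, T12N4 or T12N6 ended that call, with adjusted p up to 0.112. Dusp5, a further phosphatase of ERK, fell by 0.54 (adjusted p = 0.0226), and that call ended without T0N2, T12N1, T12N2 or T12N5, with adjusted p up to 0.0853. Dusp1 differed by -0.65 (adjusted p = 0.125), with wide and overlapping groups, Errfi1 by 0.04 (adjusted p = 0.554) and Dusp8 by -0.03 (adjusted p = 0.673).

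Further genes with large falls were Gadd45a, a stress sensor of the growth arrest family (-1.17, adjusted p = 1.8e-08), Klf10, a factor induced by TGF-beta (-1.03, adjusted p = 1.18e-05), and Tnfrsf25, a death receptor of the TNF family (-1.03, adjusted p = 0.000144). Gadd45a lay between 3.16 and 4.37 at ZT0 and read 2.41, 2.39, 2.93, 2.66 and 2.59 at ZT12. None of these 3 overlapped between the groups, which was a condition for their being named among the 15 largest falls.

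Chaperones of the cytosol and of the endoplasmic reticulum (ER) were lower at dark onset as groups of small, regular differences. Of 30 cytosolic heat shock genes, 21 fell and 1 rose, with a median of -0.20. Dnajb5, an HSP40 co-chaperone, fell by 0.94 (SE 0.11, adjusted p = 6.14e-09), from between 7.31 and 7.85 to 6.39, 6.45, 6.58, 6.73 and 6.70. Hspa1b, the inducible HSP70, fell by 0.59, Hsph1, an HSP110 exchange factor, by 0.47, and Hspa8, the constitutive HSP70, by 0.44. Hspa8 lay between 11.21 and 11.44 at ZT0 and between 10.78 and 10.97 at ZT12, so that a modest difference still separated every animal. The small heat shock proteins Hspb1 and Cryab fell by 0.44 and 0.34 with overlap. Hsp90aa1 differed by -0.06 (adjusted p = 0.598). The member called higher was Hsf2, a heat shock factor, at 0.12 (adjusted p = 0.0208), and that call ended without T0N2, T12N4 or T12N5, with adjusted p up to 0.0748.

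Of 27 ER chaperones and genes of the unfolded protein response, 17 fell and 1 rose, with a median of -0.17. Hspa5, the ER chaperone BiP, lay between 7.16 and 7.66 at ZT0 (median 7.39) and read 6.78, 6.84, 6.94, 7.09 and 6.95 at ZT12. Its fall of 0.51 (SE 0.09, adjusted p = 5.03e-05) had no overlap. Calr, a calcium-binding chaperone, fell by 0.48 (adjusted p = 1.08e-08), Xbp1, the transcription factor of the response, by 0.41 and Pdia6, a disulfide isomerase, by 0.41, all without overlap. Sdf2l1 and Manf, which are strongly induced by ER stress, fell by 0.37 and 0.33. Dnajb9, an ER co-chaperone, was the member that rose, by 0.16. Canx (-0.09, adjusted p = 0.118), Ppib (-0.05, adjusted p = 0.105) and Herpud1 (0.14, adjusted p = 0.0504) did not pass.

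The cold-inducible RNA-binding proteins, whose RNA rises when body temperature falls, moved the other way. Rbm3 lay between 6.87 and 7.29 at ZT0 (median 7.02) and read 7.74, 7.86, 7.81, 7.64 and 7.82 at ZT12, a rise of 0.70 (SE 0.07, adjusted p = 4.64e-11). Cirbp rose by 0.56 (SE 0.06, adjusted p = 9.43e-10), from between 6.22 and 6.59 to 7.06, 7.06, 7.00, 6.79 and 6.97. Both were clear of the ZT0 animals in both batches. Body temperature was not measured, and its part in these values was not tested.

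Of 28 receptors for arousal transmitters 4 were higher and 6 lower, counts close to the shares of all genes. Hrh3, the histamine H3 receptor, lay between 5.54 and 5.71 at ZT0 (median 5.61) and read 6.36, 6.42, 6.34, 6.34 and 6.52 at ZT12. The rise of 0.78 (SE 0.07, adjusted p = 5e-13) was 1.72-fold and almost equal in the batches, at 0.77 and 0.80. The serotonin receptor genes split: Htr1a rose by 0.56 (adjusted p = 3.9e-08), from between 2.49 and 2.93 to between 3.07 and 3.39, and Htr1b fell by 0.56 (adjusted p = 4.49e-06), from between 2.18 and 2.80 to between 1.66 and 2.12. The muscarinic receptor genes split too, with Chrm1 up by 0.18 (adjusted p = 0.00296) and Chrm2 down by 0.35 (adjusted p = 0.000689). Adra1d, an alpha-1 adrenoceptor, fell by 0.39 and Hrh2, a postsynaptic histamine receptor, by 0.27. Adrb1, the beta-1 adrenoceptor, fell by 0.25 (adjusted p = 0.0227, up to 0.0822 without T0N2, T12N1, T12N2 or T12N5). Chrnb2, a nicotinic receptor subunit, rose by 0.08 (adjusted p = 0.0317, up to 0.128 without J70N2, T0N2, T12N2, T12N5 or T12N6).

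Neuropeptide genes had 5 of 17 members lower and 0 higher, with a median of -0.07. Crh, corticotropin-releasing hormone, lay between 3.18 and 3.70 at ZT0 (median 3.41) and read 2.94, 2.82, 2.78, 2.70 and 2.54 at ZT12, a fall of 0.64 (SE 0.09, adjusted p = 3.15e-07). Vgf, a granule protein induced by activity, fell by 0.51, and Scg2 and Chgb, granins of dense-core vesicles, by 0.35 and 0.20. The fifth was Cck, cholecystokinin (-0.16, adjusted p = 0.0394), whose call ended without any of T0N3, J70N2, T0N9, T0N2, T12N1, T12N2 or T12N5, with adjusted p up to 0.122. Other peptides did not pass: Sst (-0.07, adjusted p = 0.309), Npy (-0.02, adjusted p = 0.822) and Penk (0.12, adjusted p = 0.296). Postsynaptic proteins had 9 of 26 lower and 1 higher, with Shank2 (-0.24) and Dlgap3 (-0.23) among those lower, and presynaptic proteins had 1 of 27 each way. Among 36 glutamate and GABA receptor genes 3 were higher and 5 lower. Grm2, a presynaptic metabotropic receptor, rose by 0.35 and Grik5, a kainate receptor subunit, by 0.24, while Gabra2, a GABA-A receptor subunit, fell by 0.29, each without overlap.

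Genes of brain vessels changed in both directions. In a bulk sample, fewer cells of a type and less RNA per cell cannot be told apart. Of 12 endothelial markers, 3 were higher and 7 lower, with a median change of -0.19. The summed level of the list lay between 8.22 and 8.37 at ZT0 and between 8.25 and 8.43 at ZT12. Such a sum gives most weight to the markers with the highest values, among them the 3 called higher. Cldn5, the main tight junction claudin of brain endothelium, lay between 5.35 and 5.60 at ZT0 (median 5.46) and read 4.40, 4.70, 4.24, 4.49 and 4.42 at ZT12. That was a fall of 1.02 (SE 0.09, adjusted p = 1.26e-12), 2.03-fold, with no overlap. Kdr, the VEGF receptor 2, fell by 0.71 (adjusted p = 7.55e-09), Cdh5, the endothelial cadherin, by 0.27 and Flt1, the VEGF receptor 1, by 0.23, again without overlap. Pecam1, the adhesion molecule CD31, fell by 0.18 (adjusted p = 0.0413), and 8 of the 13 omissions of a single animal (T0N5, J70N1, T0N3, T0N2, T12N1, T12N4, T12N5 and T12N6) ended that call, with adjusted p up to 0.187.

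The 3 endothelial markers called higher were Slc2a1, Slco1a4 and Ly6c1, and Abcb1a and Vwf were not called. Slc2a1, the glucose transporter GLUT1, lay between 5.61 and 5.85 at ZT0 (median 5.67) and read 6.28, 6.32, 6.20, 6.30 and 6.64 at ZT12, a rise of 0.66 (SE 0.06, adjusted p = 1.21e-12). Slco1a4, an organic anion transporter, rose by 0.27 without overlap, and Ly6c1, a surface marker, by 0.21 with overlap. Other transporters stand in other lists: Slc7a5, the large neutral amino acid transporter, rose by 0.38 (adjusted p = 3.29e-08), and Slc16a1, the monocarboxylate transporter MCT1, fell by 0.46 (adjusted p = 7.16e-11).

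Fuel metabolism changed at a few genes. Of 30 glycolysis and glycogen genes 7 fell and 2 rose, with a median of -0.05. Pfkfb3, which sets glycolytic flux, fell by 0.36, Ppp1r3c, a glycogen-targeting subunit, by 0.27, Ldha, a lactate dehydrogenase subunit, by 0.25 and Pfkp, a phosphofructokinase, by 0.21. The abundant enzymes Aldoa (-0.05, adjusted p = 0.418) and Gapdh (-0.05, adjusted p = 0.401) did not pass. Cholesterol synthesis had 3 of 25 higher and 3 lower. Acat2, a thiolase of this route, rose by 0.27 and Ebp, a sterol isomerase, fell by 0.25. Srebf2, the transcription factor of the route, fell by 0.14 (adjusted p = 0.0242), and that call ended without T0N2, T12N2 or T12N4, with adjusted p up to 0.0867. Fatty acid synthesis had 6 of 18 lower and 0 higher, among them the elongase Elovl6 (-0.27) and the lipogenic regulator Thrsp (-0.22, adjusted p = 0.0178, up to 0.0735 without T0N2, T12N1 or T12N6). Respiratory chain genes had 1 of 38 each way and cytosolic ribosomal proteins 0 of 46, with 2 of the latter at an unadjusted p under 0.05 in limma.

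Further groups are given by their counts, beside the 11.6% and 14.4% of all genes. Splicing and RNA-binding factors had 5 of 31 higher and 8 lower. Tra2a, Hnrnpc and Hnrnph1 fell by 0.35, 0.24 and 0.23, and Luc7l2 and Srsf11 rose by 0.20 and 0.21. Potassium channels had 5 of 34 higher and 3 lower, proteasome subunits 2 of 31 higher and 1 lower, and histone- and DNA-modifying enzymes 4 of 33 each way, with the demethylase Kdm6b down by 0.53. Of 28 DNA damage genes 4 were higher, among them the glycosylase Ogg1 (0.33), and 3 lower. Sik1, a salt-inducible kinase, fell by 0.57 (adjusted p = 0.0212, up to 0.0619 without T0N2, T12N1, T12N2 or T12N5). Of 13 astrocyte markers 0 were higher and 2 lower by limma, with 3 at an unadjusted p under 0.05, and of 10 markers of oligodendrocyte precursors 2 were higher and 3 lower. The median change was -0.04 for the astrocyte markers and 0.02 for the precursor markers. Among the members lower, Sox10 of the precursor list fell by 0.41 and Sox9 of the astrocyte list by 0.36. The 2 precursor markers called higher went the other way. Sox2, a transcription factor of glia and progenitors, and the lipid carrier Fabp7 stand in no list and were named as genes lower at ZT12 but not called at T30. They fell by 0.55 (adjusted p = 1.08e-11) and 0.52, and all 4 genes were without overlap, which was a condition for naming Sox2 and Fabp7. The summed astrocyte markers lay between 11.10 and 11.25 at ZT0 and between 11.04 and 11.19 at ZT12, and those of oligodendrocyte precursors between 7.13 and 7.32 and between 7.03 and 7.16. Their part in the glial values was not tested.

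**Figure D3:**
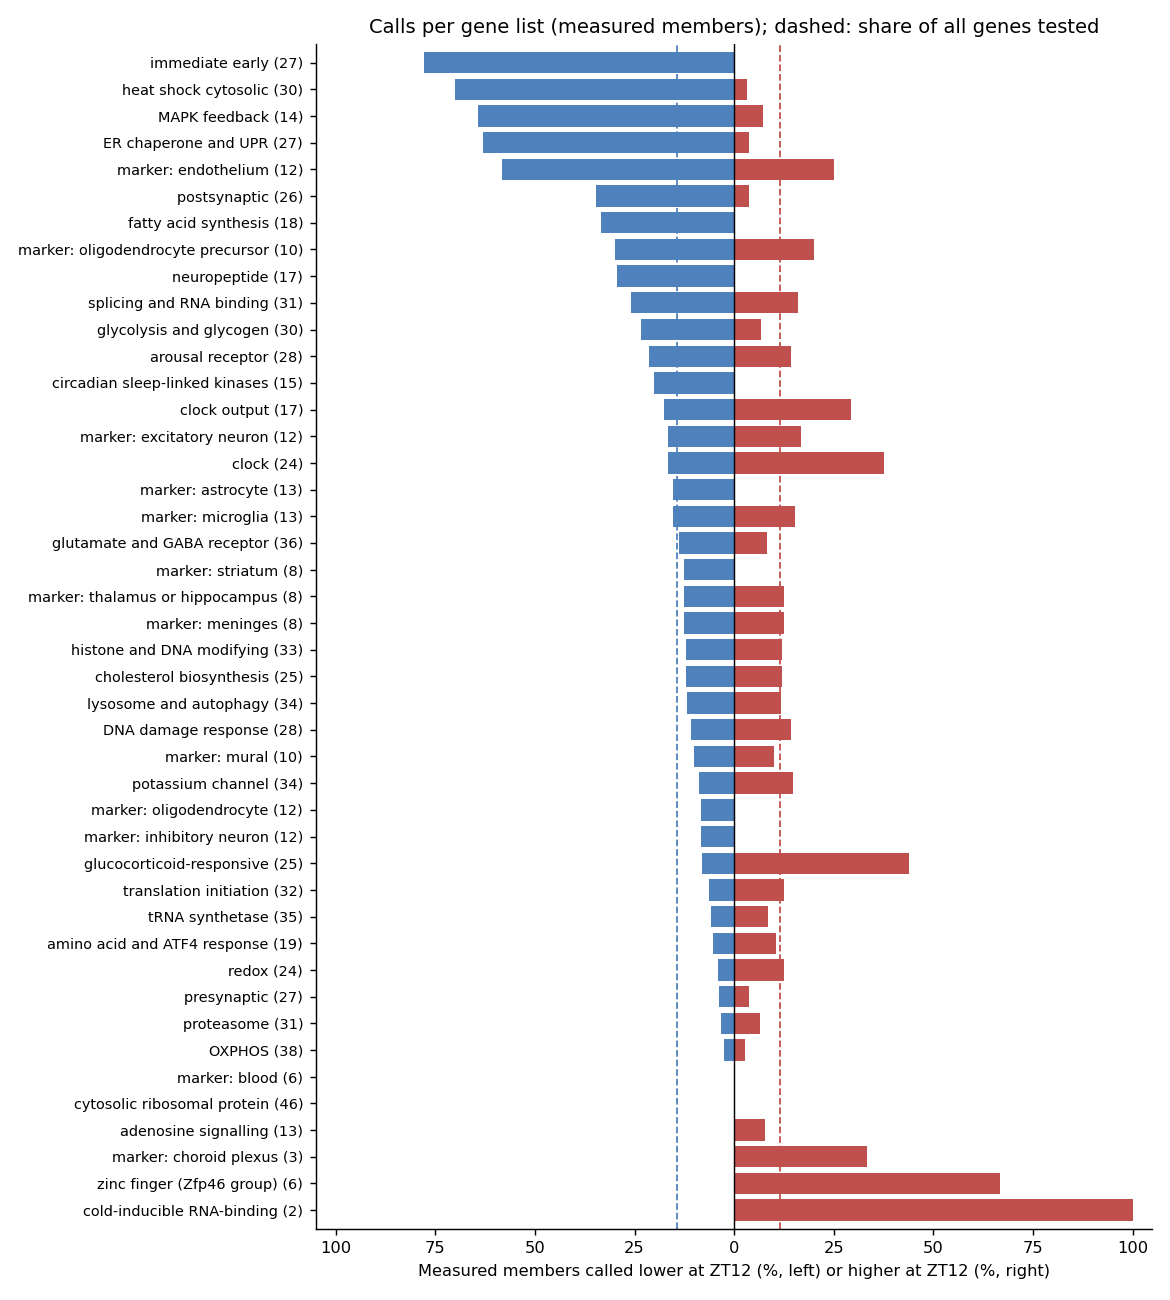
Percent of the measured members of each gene list (rows) called lower (bars to the left) or higher (bars to the right) at ZT12 against ZT0. Dashed lines mark the shares of all 13842 genes tested, 14.4% lower and 11.6% higher. Immediate early genes (21 of 27 lower) and cytosolic heat shock genes (21 of 30) reach furthest left, and cold-inducible genes and glucocorticoid-responsive genes (11 of 25) reach right.

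Undisturbed mice at the other times place the difference within the day. Choosing genes for a higher level at ZT12 than at ZT0 favours ZT12 as their highest time and ZT0 as their lowest, so the shares are partly fixed by the choice and are given as a description. Of all genes, 18.5% had their highest group mean at ZT12, 21.4% at ZT6 and 24.6% at ZT18, and 23.5% were lowest at ZT12. Of the 1605 genes called higher, 1083 (67.5%) had their highest group mean at ZT12 and 346 at ZT6, while 803 were lowest at ZT0 and 543 at ZT18. Of the 1990 called lower, 1392 (69.9%) were lowest at ZT12, and 921 were highest at ZT0 and 743 at ZT18. Dbp, Ciart, Hif3a, Sgk1, Net1 and Rbm3 were highest at ZT12 and lowest at ZT0. Nr1d1, Pla2g4e and Cirbp were highest at ZT6, and the chaperones Hspa5, Calr and Hsph1 were highest at ZT18 and lowest at ZT12. Arc, Egr2 and Nr4a1 were highest at ZT0 and lowest at ZT6, and Fos and Egr1 lowest at ZT12.

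The same genes were then read in mice kept awake through the first 6 h of light. T30 was compared with ZT6 controls, and neither group shares a library with ZT12 or ZT0. In that comparison 31.6% of all genes were called, 16.0% higher and 15.6% lower. Of the 1605 genes higher at dark onset, 947 were lower at T30, 54 higher and 604 not called. The 947 are 59.0% of the genes higher at ZT12 and 43.9% of those lower at T30. Of the 1990 genes lower at dark onset, 1111 were higher at T30, 27 lower and 852 not called. The 1111 are 55.8% of the genes lower at ZT12 and 50.1% of those higher at T30. Across the 13842 genes the 2 differences had a Pearson r of -0.603, a description over genes that are not independent of each other. All 3 T30 animals are of batch 1, and with batch 1 alone the comparison gave 3404 calls in place of 4372.

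Gene groups are given here side by side in the 2 comparisons. Immediate early genes fell at ZT12 in 21 of 27 members and rose at T30 in 25, with Arc at -2.02 and 3.28 and Bdnf at -0.69 and 1.15. Heat shock genes had 18 of 30 and ER genes 19 of 27 members higher at T30 and none lower, with Hspa5 at 1.04. Dbp (-0.96), Pla2g4e (-1.45), Cirbp (-0.97), Rbm3 (-0.76) and Zfp46 (-0.84) were higher at dark onset and lower at T30. Of the 25 glucocorticoid-responsive genes, 17 were higher at T30 and 1 lower. Sgk1 (0.34), Tsc22d3 (0.48), Nfkbia (0.43), Plin4 (0.93), Fkbp5 (0.48) and Map3k6 (0.43) were higher in both, as were Slc2a1 (0.32) and Lfng (0.34), while Hif3a differed by 0.31 with an adjusted p of 0.145. Slc16a1 (-0.20) and Sox9 (-0.25) were lower in both. Cldn5 (-0.14, adjusted p = 0.385), Sox2 (0.02, adjusted p = 0.834) and Klf15 (0.09, adjusted p = 0.569) did not pass at T30. Nor did Nnat (0.08, adjusted p = 0.796) and Gramd3 (0.08, adjusted p = 0.477), which had fallen by 0.55 and 0.53 at ZT12 without overlap. Cldn5, Sox2, Klf15, Nnat and Gramd3 were picked for the class not called at T30, from genes without overlap at ZT12. Sgk1, Lfng, Slc2a1, Tsc22d3 and Nfkbia were picked in the same way for the class higher in both, which held 54 genes. Slc16a1 and Sox9 came from the class lower in both, which held 27. Dbp and Pla2g4e were picked as higher at ZT12 and lower at T30, and Arc for the reverse. For all of these genes the outcome at T30 and the lack of overlap at ZT12 were fixed by the choice of class. They are given as a description.

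The pair of T60 and T192 gave dark onset against light onset in mice that had been deprived 30 h and about 7 days before. It shares no library with ZT12 and ZT0, and all 6 animals are of batch 2. There 1676 genes were higher (12.1%) and 1249 lower (9.02%), 21.1% of all genes. The count fell to 1642 without J70S3 and to 1819 without T60S4. Of the 1605 genes higher at ZT12, 807 were higher at T60, which is 50.3% of them and 48.2% of the T60 list. Of the 1990 lower at ZT12, 784 were lower at T60, 39.4% of them and 62.8% of the T60 list. The Pearson r across the 13842 genes was 0.574. Ciart rose by 1.51, Dbp by 1.43, Hif3a by 1.63 and Sgk1 by 1.07 in these mice, and Arc fell by 2.31, Cldn5 by 0.87, Nfil3 by 0.92 and Arntl by 0.62. Immediate early genes had 21 of 27 members lower in each pair, though not all the same ones. Junb, for example, was called lower at T60 (adjusted p = 0.0414) but not at ZT12. Other groups differed in their counts. Proteasome subunits had 20 of 31 higher at T60 and 2 at ZT12, respiratory chain genes 15 of 38 and 1, and tRNA synthetases 12 of 35 and 3. Cytosolic heat shock genes had 8 of 30 lower at T60 and 21 at ZT12. A test of the difference between the 2 dark to light differences called 13 genes, 0.0939% of those tested (0.0795% with the larger value after deprivation and 0.0144% with the smaller), and none of the genes named so far in this paragraph. These calls depended on single animals: 11 of the 19 omissions of a single animal left 0, and the omission of T12N4 gave 25.

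**Figure D4:**
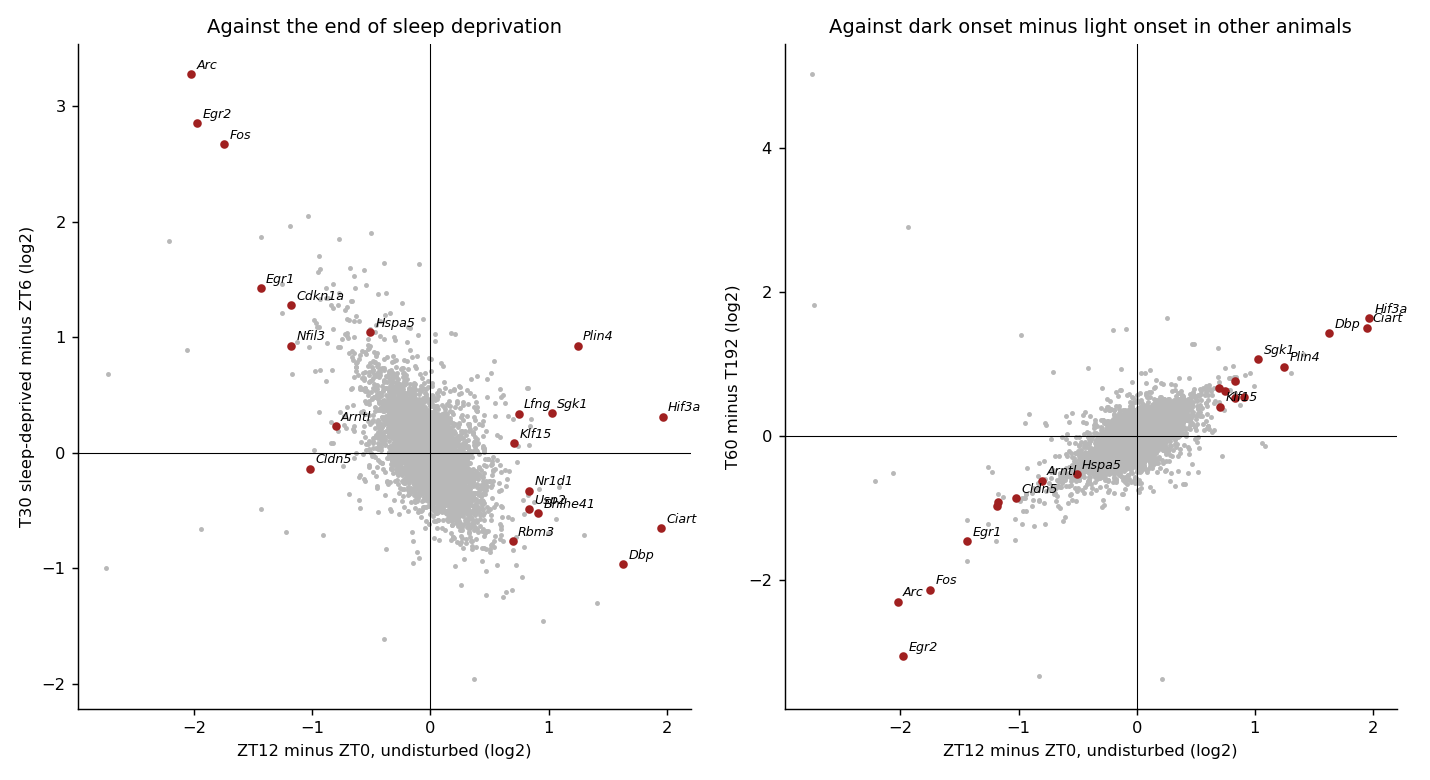
Each point is a gene. The horizontal axis is the log2 difference ZT12 minus ZT0 in undisturbed mice, and the vertical axis the log2 difference T30 minus ZT6 (left panel) or T60 minus T192 (right panel). The cloud slopes down on the left (r = -0.603) and up on the right (r = 0.574), and red points with names mark genes of the text, Arc and Fos towards the lower end of the horizontal axis and Ciart, Dbp and Hif3a at its upper end.

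Chromatin accessibility was read in the same 13 animals over 130727 peaks, in the authors' normalized signal. Between 2.31 and 7.37 M reads per library fell in peaks. A smaller share of features was called than in RNA, a readout that differs in depth and in the number of features tested. At ZT12, 1689 peaks were more open and 1658 less open, 2.56% of all, 1.29% and 1.27%. That count was 1621 without T12N1, 2231 without T12N4 and 2132 without T12N6, and 1939 when the 13 libraries were fitted alone. Among 15964 peaks within 1000 bases of a gene start, 249 (1.56%) were more open and 65 (0.407%) less open. Coordinates below are on mm10, which is GRCm38, and all genes of interest were searched to 10000 bases either side, a distance chosen after values were seen.

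The peak with the smallest p of all lay inside Hif3a, at chr7:17058086-17058738. Its signal was between 5.01 and 9.39 at ZT0 (median 7.40) and 19.1, 18.2, 20.4, 17.9 and 18.9 at ZT12. The groups were widely apart, with a rise of 1.30 on the log2 scale (SE 0.14, adjusted p = 1.24e-09), 2.46-fold. A weaker peak at the Hif3a start, chr7:17062378-17062756, rose by 0.82 (adjusted p = 0.0268) with overlap, a call lost without T12N1, T12N4, T12N6 or T0N9 (0.60 and an adjusted p of 0.213 without T12N6). A peak in Plin4, chr17:56108599-56109161, lay between 3.79 and 7.16 at ZT0 and read 10.8, 15.1, 10.7, 8.40 and 10.1 at ZT12, a rise of 1.04 (adjusted p = 7.4e-05). The peak over the Ciart start, chr3:95881808-95883363, which spans the E-box stretch printed above, lay between 31.4 and 44.0 at ZT0 (median 37.7). At ZT12 it read 55.3, 61.3, 59.3, 57.8 and 47.1, a rise of 0.57 (SE 0.10, adjusted p = 0.000144) with no overlap.

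Zbtb16 held 4 peaks that were more open at ZT12, though its RNA call rested on single animals. The strongest, chr9:48723285-48724313, lay between 8.28 and 14.7 at ZT0 and read 20.2, 25.9, 20.2, 18.7 and 19.1 at ZT12, a rise of 0.89 (adjusted p = 1.5e-05) with no overlap. A peak before the Dbp start, chr7:45704007-45704508, rose by 0.55 (adjusted p = 0.00761), or 0.47 with an adjusted p of 0.0513 without T12N2. A peak at the Net1 start, chr13:3917499-3918627, rose by 0.56 (adjusted p = 0.00978) with slight overlap, or 0.49 with an adjusted p of 0.0549 without T12N4. In Nr4a3 a peak at chr4:48050405-48050749 lay between 3.84 and 7.01 at ZT0 and read 3.04, 2.02, 2.74, 2.10 and 2.85 at ZT12, a fall of 0.85 (adjusted p = 0.00977).

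**Figure D5:**
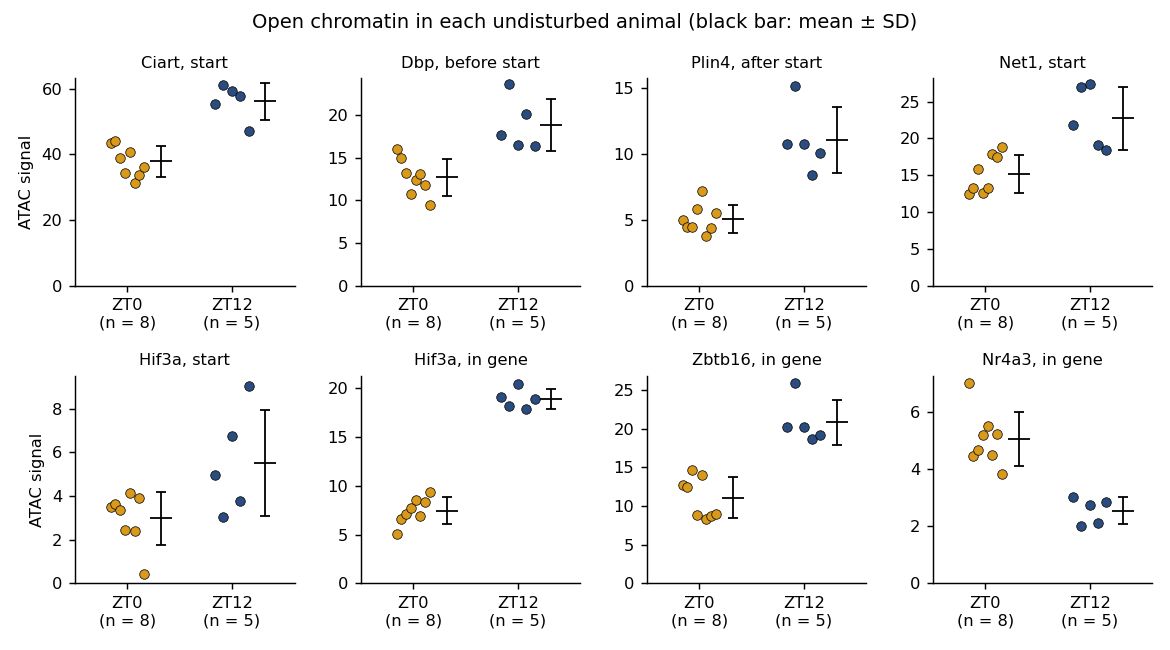
Normalized ATAC signal (vertical axis) of 8 peaks in the 8 mice at ZT0 (orange) and the 5 at ZT12 (blue). Points are animals, and bars give the mean with the standard deviation. The Hif3a peak at ZT12 sits between 17.9 and 20.4, above the ZT0 maximum of 9.39, and the Nr4a3 peak is lower at ZT12.

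By gene group, 202 peaks lay in or near the glucocorticoid-responsive genes, of which 9 (4.46%) were more open and 1 (0.495%) less open. Of those 9, Zbtb16 held 4, Hif3a 3, and Plin4 and Fam107a 1 each. Near the clock genes 3 of 256 peaks (1.17%) were more open and 1 (0.391%) less open, shares no higher than those of all peaks. The 15 genes with the largest rises in RNA had 111 peaks, 5 more open and 0 less open by limma, with 18 and 10 at an unadjusted p under 0.05. The 15 with the largest falls had 84, of which 0 were more open and 2 less open by limma, with 4 and 8 at an unadjusted p under 0.05. Peaks of 1 gene share its neighbourhood and are not independent.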

How the data were processed

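Members and gene lists were chosen with earlier results of these data known, and groups were taken from the labels alone. The deposited RNA table holds log2 levels with an offset of 0.5, adjusted for batch by the authors, as its values show: genes at exactly -1 occur in batch 1 libraries, and values under -1 in batch 2 libraries. Its read depth cannot be read back, and any scaling for gene length is not stated in the sources. The labels' protocols give over 36 M (median 55 M) mappable reads per RNA library. T0N5 was sequenced in both batches, and its merged RNA column was treated as batch 1. ATAC values are the authors' normalized signal per peak, of which 100% came out as whole reads times a step of the library (tolerance 0.02). Per the submitters' processing notes, which give no order or settings, the authors used HTSeq 0.6.1, MACS2 2.1.1, bedtools 2.26.0, sleuth 0.29.0 and kallisto 0.43.0, with SAMtools, Bowtie2 and FastQC, on GRCm38 and mm10.

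RNA levels as deposited, and log2 of ATAC signal plus 0.5, were fitted in limma 3.58.1 (R 4.3.3) with a mean per group over all groups and a batch term, 44 residual degrees of freedom for RNA, and an intensity trend. Tests were two-sided and adjusted by Benjamini-Hochberg over all features. The scripts were tested on simulated data. Named genes were the 15 largest rises and falls among called genes whose groups did not overlap and whose mean level was above the 25th percentile (3.09), up to 6 called members each way and 3 uncalled ones per list, and up to 5 per class of the T30 comparison; single further genes were added after their values were seen. Motifs were searched in RefSeq promoters. Alternatives were other libraries, filters, offsets and terms, and edgeR 4.0.16 on the recovered ATAC reads, which was added after seeing the data. A few listed or called genes are not reported here by name.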

Additional observations from a re-analysis of the deposited data

Results flagged for a closer look

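Single animals far from the rest of their group were looked for in the 159 genes followed by name, at ZT0 and at ZT12, by the gap between the extreme animal and its nearest neighbour as a share of the group's range. Of 318 groups, 10 held such an animal, and chance alone marks about 1 in 20. At ZT0, T0N3 was low in Csnk1d (6.41) and high in Rheb (7.28), and T0N2 was high in Egr4 (5.33). J70N1 was high in Jun (4.66), T0N5 low in Hsph1 (7.71) and T0N1 high in Plin4 (0.89). At ZT12, T12N6 was high in Slc2a1 (6.64) and Fkbp5 (4.83), T12N4 low in Per3 (5.24) and T12N5 high in Clock (4.89).

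The difference of T60 minus T192 in previously deprived mice was tested against that of ZT12 minus ZT0 in undisturbed mice, and 13 genes had an adjusted p between 0.047 and 0.0497 (limma), of which 12 are given. The first difference exceeded the second by 0.77 in Abi3, 0.34 in Cryl1, 0.85 in Lor, 0.25 in Lrp11, 0.65 in Mblac1, 0.21 in Sdhb, 0.27 in Ssu72, 0.79 in Taf9, 0.39 in Yrdc and 0.23 in Cd2bp2. It was lower in Asprv1 (-0.70) and Pcdh15 (-0.54). No call was left without T0N3, J70N2, T0N2, T12N1, T12N2, T12N5, T12N6, J70S2, J70S3, T60S3 or T60S4, 4 were left without T0N5, 2 without T0N8, 5 without J70S1 and 1 without T60S2, and 25 were made without T12N4.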

How the results depend on the processing

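The count of 3595 genes called between ZT12 and ZT0 stayed within 1.5 times of itself under the other filters, offsets, moderations and scalings, without the batch term, with the ZT0 animals of either time label alone, and without any single animal (2998 to 3566). It fell to 2087 with batch 1 alone and to 632 with batch 2 alone, both with fewer animals. With the animal number as a replicate block it was 1745 (722 higher and 1023 lower), although the numbers do not pair these animals: same-numbered animals had residual correlations of -0.088, 0.218, 0.034, -0.088 and -0.024. Under that block 18 of the 159 genes followed by name lost their call and none changed direction. A direction changed for Zbtb16, at -0.0114 with batch 1 alone. Without single animals the T60 against T192 count ran from 1642 to 2405 and that of the difference between both dark to light differences from 0 to 25. For ATAC the 3347 calls became 1939 with the 13 libraries alone, 1851 with the replicate block and 1621 to 3909 without single animals, while edgeR on recovered reads called 2263 higher and 1571 lower. The cause of these shifts was not tested. RNA depth per library cannot be read from the table, and the 5 animals at ZT12 limit the precision of every estimate.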
